A study of Rattus norvegicus with 4 samples.

Results

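Proteoglycans of 3 families were followed in ribosome profiling libraries of cultured rat heart cells: the small leucine-rich proteoglycans decorin (Dcn), biglycan (Bgn), lumican (Lum) and osteoglycin (Ogn), the glypicans Gpc1, Gpc3, Gpc4 and Gpc6, and the syndecans Sdc1 and Sdc4. The members were chosen by gene name, with earlier results of these data known. These 10 genes hold 12 of the 18847 open reading frames (ORFs) listed in the series: 1 annotated ORF for each gene, and for Dcn also 1 upstream and 1 downstream ORF on the same transcript. The cells were neonatal ventricular cardiomyocytes of Sprague-Dawley rats at postnatal day 2, grown in high-glucose medium with fetal bovine serum after a plating step meant to remove other cell types. The study compared 2 groups of 2 libraries: cells titled control, and cells given phenylephrine (PE) at 20 µM for 24 h. PE is an α1-adrenergic agonist that makes cultured cardiomyocytes grow. The titles do not say whether control cells received the solvent alone. Nothing in the labels says that the 2 libraries of a group are separate cultures, and the p-values therefore reflect variation among these libraries alone, which may be technical. The readout was the number of ribosome-protected fragments (footprints) on each ORF, which depends on both the amount of mRNA and how heavily it is translated. RNA-seq was not analysed here.

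Proteoglycans are core proteins that carry long sulfated sugar chains, the glycosaminoglycans. Small leucine-rich proteoglycans are secreted, bind collagen fibrils through their leucine-rich repeats and hold growth factors in the matrix of the heart, where fibroblasts are known as a main source. Glypicans are tethered to the outer cell surface by a lipid anchor, and syndecans span the membrane with a short cytoplasmic tail. Both carry heparan sulfate, which presents growth factors such as fibroblast growth factors and Wnt proteins to their receptors.

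Footprints on Dcn and Sdc4 rose after PE, while those on Gpc3, Gpc4 and Gpc6 fell. Gpc1 and Lum did not pass the test, and Bgn and Sdc1 moved little. Of the 9 member genes that could be tested, 3 were called higher and 4 lower at an adjusted p of 0.05 (quasi-likelihood F test of edgeR, adjusted by Benjamini-Hochberg over all 12609 tested ORFs). Over all tested genes, taking 1 annotated ORF for each, 22.3% were higher and 22.8% lower, 45.2% in either direction, and over all tested ORFs the share called was 42.7%. The 4 libraries held 11446574 to 13827599 footprints, and the replicates of a group lay close together, so that changes of a few percent could pass. Against a 1.5-fold change, 4 members were called (Dcn higher; Gpc3, Gpc4 and Gpc6 lower), where 8.00% of all tested ORFs were.

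**Figure D1:**
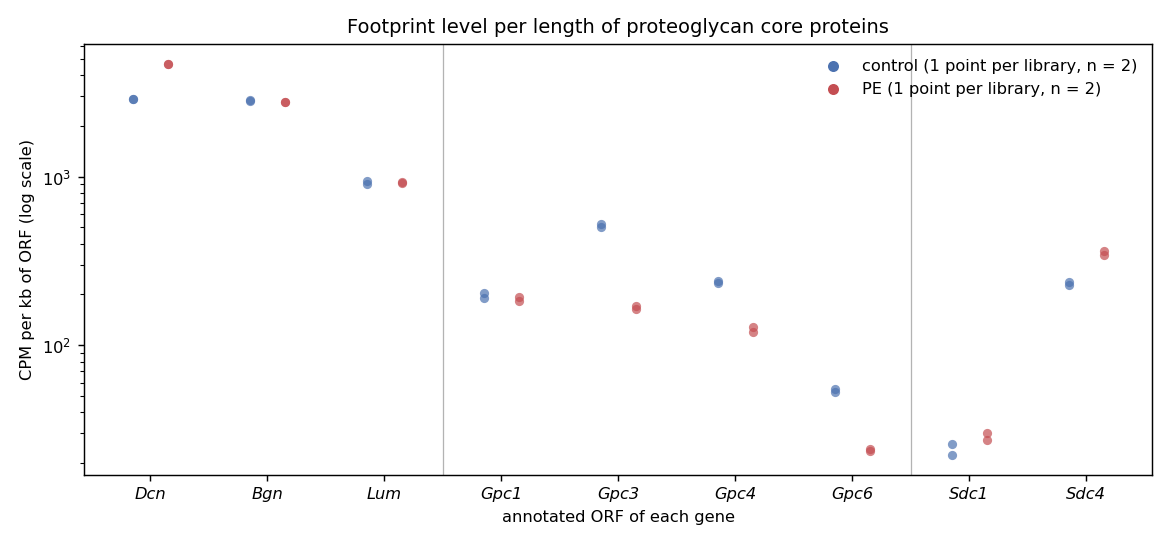
Footprint level in CPM per kb of ORF (log axis) on the annotated ORF of the 9 member genes with counts, 1 point per library, 2 control and 2 PE libraries. Dcn and Bgn sit together near 2892 and 2834 in control, and in PE Dcn lies higher than all of them, at 4683.

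Levels between genes are compared per kilobase of ORF, as the mean ± SD of 2 libraries in CPM per kb, where CPM is the footprint count scaled to the TMM-adjusted size of its library. In control, Dcn stood highest at 2892 ± 10.98, followed by Bgn at 2834 ± 12.9, Lum at 927 ± 29.7 and Gpc3 at 512 ± 16.1. Gpc4 at 236 ± 3.79 and Sdc4 at 231 ± 6.99 overlapped between libraries. Gpc1 came next at 197 ± 9.34, then Gpc6 at 54.1 ± 1.57 and Sdc1 at 24.1 ± 2.68. After PE the order among the cell-surface genes was different. Sdc4 led these at 354 ± 13.6 CPM per kb, ahead of Gpc1 at 188 ± 5.64, Gpc3 at 167 ± 5.61 and Gpc4 at 124 ± 5.78, and Sdc1 at 28.7 ± 1.84 lay above Gpc6 at 23.9 ± 0.652.

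**Figure D2:**
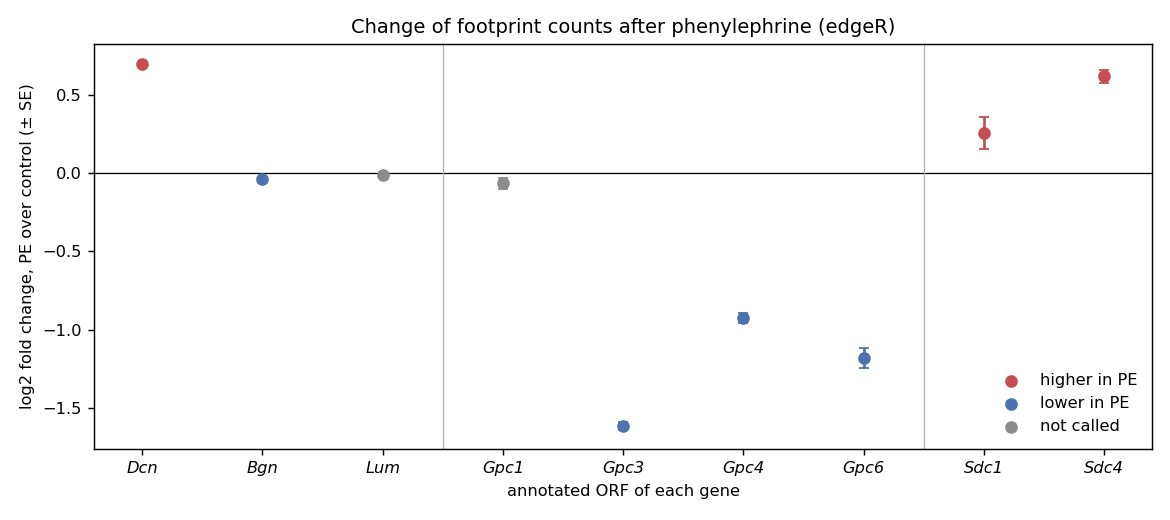
Log2 fold change of PE over control with its standard error (edgeR) for the annotated ORF of the 9 tested member genes; colour gives the call at an adjusted p of 0.05. Gpc3 is lowest at -1.62, Gpc6 and Gpc4 follow at -1.18 and -0.93, and Dcn and Sdc4 are highest at 0.70 and 0.62.

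Decorin, which binds collagen, TGF-beta and several growth factor receptors, had 3079 and 3063 CPM in the 2 control libraries and 4965 and 4982 CPM in the 2 PE libraries. Both PE libraries were far above both control libraries. Its annotated ORF (chromosome 7, 38746078 to 38781775 on the plus strand of Rnor_6.0, introns included, ENSRNOG00000004554) has 354 codons. The log2 fold change was 0.70 ± 0.01 (SE), a 1.62-fold increase, with an edgeR adjusted p = 1.07e-28. It kept its call under all 14 alternative settings. The authors' deposited table gives 0.70 ± 0.01 for the same ORF.

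Biglycan, the closest relative of decorin in structure, was nearly level. Its ORF (chromosome X, 157320240 to 157323880, minus strand, 369 codons) had 3127 and 3147 CPM in control and 3052 and 3069 CPM in PE. The groups did not overlap, but the distance between them was small, at a log2 fold change of -0.04 ± 0.01 with an edgeR adjusted p = 0.0423. This call was lost without control replicate 2 (adjusted p = 0.148, edgeR), PE replicate 1 (0.116) or PE replicate 2 (0.0707), and the authors' deposited table gives an adjusted p of 0.0781.

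Lumican, which regulates the spacing of collagen fibrils, is the next gene after Dcn among the ORFs of chromosome 7 (38822455 to 38826196, plus strand, 338 codons). It had 961 and 918 CPM in control and 924 and 938 CPM in PE. The PE values fell between the control values, and the log2 fold change was -0.01 ± 0.02, with an edgeR adjusted p = 0.703. With library totals in place of TMM scaling it was called lower, at -0.05 (adjusted p = 0.0274, edgeR). The same held with a trend on ORF length removed and a term for replicate number (-0.05, adjusted p = 0.0448, edgeR). Without control replicate 1 its sign turned, to 0.02. The difference between Dcn and Lum was not tested.

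Osteoglycin, also called mimecan, is a small proteoglycan of bone, vessels and heart. Its annotated ORF (chromosome 17, 15449301 to 15467279, minus strand, 298 codons) had 0 counts in each of the 4 libraries, so its response to PE could not be measured. The annotation nevertheless lists 7939 P-sites on it, positions of the ribosome's peptidyl site pooled over libraries, of which 83.8% were in the reading frame. The count of 0 is thus no measure of whether Ogn was translated.

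The summed level of the small leucine-rich members was 7167 and 7128 CPM in control and 8942 and 8989 CPM in PE. Dcn made up 43.5% of the per-kilobase total of this family in both control libraries and 56.0% and 55.9% in PE. The shares of Bgn went from 42.3% and 42.9% to 33.0% and 33.1%, and those of Lum from 14.2% and 13.7% to 10.9% and 11.03%, although their own levels moved little. Ogn enters these sums at 0.

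Most markers of fibroblasts were lower in PE, but Fbln2, Sfrp1 and Mfap5, named after their values were seen, rose as Dcn did. Mean levels went from 224 to 720 CPM for Fbln2 and from 126 to 356 CPM for Sfrp1. Mfap5, under 5 CPM, was at 0.98 on the log2 scale. Among 18 tested fibroblast markers, 3 were higher and 12 lower, with a median log2 fold change of -0.45, against -0.01 over all tested annotated ORFs. Their summed level was 34620 and 34980 CPM in control and 18290 and 18510 CPM in PE, led by the matrix protein periostin (Postn) at 13701 ± 52.6 and 6588 ± 12.7 CPM (SD, n = 2) and by the collagen chain Col1a1 at 8199 ± 86.7 and 5437 ± 95.3 CPM. In bulk samples, fewer cells of a type and less RNA or translation per cell cannot be told apart, and the part of cell makeup in the values of the members was not tested. The cardiomyocyte markers were abundant, at 63150 and 63400 CPM in control and 58040 and 58450 CPM in PE, with 2 of 11 higher and 8 lower, and the most abundant over all 4 libraries were the myosin heavy chain Myh7 at 32058 ± 59.6 and 30774 ± 121 CPM and the light chain Myl3 at 5362 ± 0.440 and 7282 ± 36.5 CPM. The heavy chain Myh6, named after its value was seen, stood above Myl3 in control at 6586 CPM and had 2651 CPM in PE. Myh6 had 0.19 counts per P-site and Myh7 0.664, against 1.19 for Myl3 and a median of 1.12 over all ORFs. Pooled P-sites numbered 1228563 on Myh6 and 264316 on Myl3, so the order of these markers by counts differs from that by P-sites. Smooth muscle and pericyte markers summed to 1785 and 1787 CPM in control and 1432 and 1435 CPM in PE. Of these, 8 of 10 were lower and 1 higher (Acta2 at -0.30 and Tagln at -0.83 on the log2 scale). The higher one, Cnn1, named after its value was seen, rose from 55.5 ± 3.14 to 253 ± 0.331 CPM (log2 2.19). Leukocyte markers summed to 632 and 619 CPM in control and 420 and 416 CPM in PE, and 9 of 11 were lower (Lyz2 by -0.56, Cd68 by -0.53). Endothelial markers stood at 311 and 299.8 CPM in control and 199.5 and 206 CPM in PE, with 6 of 10 lower and 1 higher (Cdh5 at -0.94; Flt1, at 0.12, did not pass). Mesothelial markers stood at 208.5 and 225 CPM in control and 156 and 157 CPM in PE, with 3 of 7 lower and 2 higher (Msln at -0.62, Upk3b at -1.14, and, named after their values were seen, the higher Krt18 at 1.07 and Upk1b at 0.33). Schwann cell markers summed to 2.41 to 3.06 CPM, and S100b, at 0.28 on the log2 scale, did not pass. The leukocyte marker Fcgr3a had 0 counts in all libraries, and the collagen chain Col1a2, a defining fibroblast gene, had 2 counts in all against 158850 P-sites.

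Besides the protein-coding ORF, the Dcn transcript carries 2 short ORFs with footprints. Short ORFs in the leader of an mRNA can engage ribosomes before they reach the main start codon. The upstream ORF of 15 codons (chromosome 7, 38742076 to 38742123, plus strand) had 37.2 and 39.7 CPM in control and 44.3 and 46.4 CPM in PE. Both PE values were above both control values, with a log2 fold change of 0.24 ± 0.08 and an edgeR adjusted p = 0.0121, where the authors' deposited table gives an adjusted p of 0.135. Of its 1481 pooled P-sites, 84.0% were in frame, close to the 84.7% over all ORFs. Per kilobase it reached 854 ± 39.5 CPM in control, against 2892 ± 10.98 for the annotated ORF. The upstream ORF is only 45 nt long and had 1.41 counts per P-site, against 1.23 for the annotated ORF. The 2 levels per kilobase are therefore not strictly comparable.

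Relative to the annotated ORF, the upstream ORF had fewer counts in both PE libraries, but the difference did not pass the test across pairs. Its counts were 1.21% and 1.30% of those of the annotated ORF in the control libraries and 0.893% and 0.932% in the PE libraries, so that the groups did not overlap. In levels, 68.6% of all tested ORFs had groups that did not overlap, and the share for such ratios over all pairs was not computed. The difference of log2 fold changes, upstream minus annotated, was -0.46 ± 0.13 (SE). It did not pass in a model with a term for each library, fitted over 671 pairs of an upstream and an annotated ORF (adjusted p = 0.123, edgeR), where 1.19% of pairs were called. Models that let the 2 counts of a library enter as independent samples called it, and so did the one without control replicate 1 (adjusted p = 0.0264, edgeR). The median difference over all pairs was 0.18, and 68 pairs had a lower value than Dcn.

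The downstream ORF of Dcn has 28 codons and lies beyond the stop codon (chromosome 7, 38781869 to 38781955, plus strand). It was sparse, with 1.98 and 1.64 CPM in control and 1.75 and 2.27 CPM in PE. The groups overlapped, and its log2 fold change of 0.16 ± 0.36 did not pass (adjusted p = 0.759, edgeR). These values rest on 21 to 28 counts per library.

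**Figure D3:**
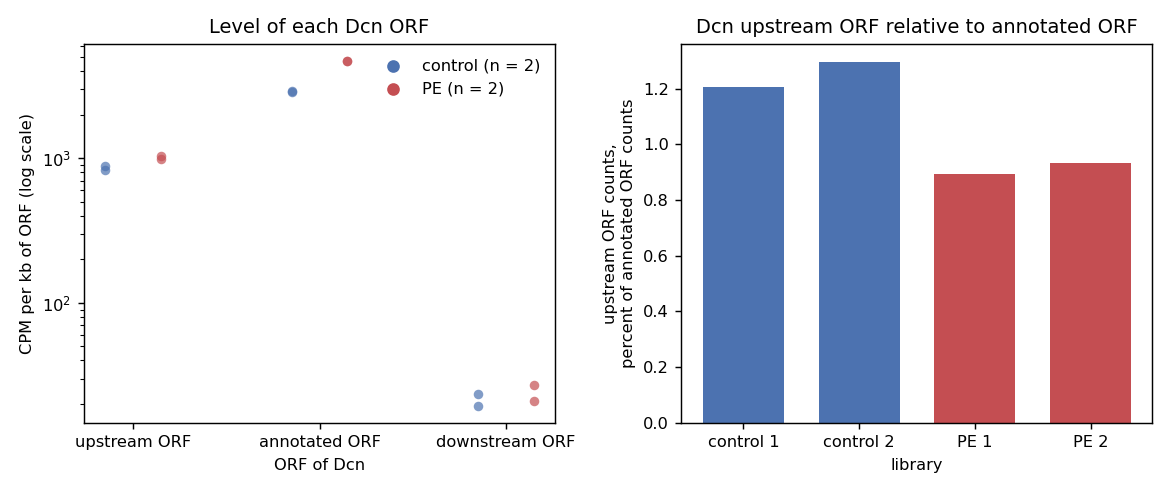
Left, CPM per kb (log axis) of the upstream, annotated and downstream ORF of Dcn, 1 point per library (2 control, 2 PE). Right, counts on the upstream ORF as a percent of counts on the annotated ORF in each library: the control bars stand at 1.21 and 1.30, the PE bars at 0.893 and 0.932.

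Of the 4 glypicans, 3 fell. Gpc3 and Gpc4 are listed side by side on the minus strand of chromosome X (Rnor_6.0), at 139579574 to 139916877 and 139354832 to 139464318. No other ORF of the series lies between them. Because these neighbours moved in the same direction, the 250 bases before the start of each gene are shown as RefSeq gives them for build GRCr8, both on the minus strand. The capitals mark matches to the GC box GGGCGG, which reads CCGCCC on the other strand.
Gpc3, chrX:137157599-137157848: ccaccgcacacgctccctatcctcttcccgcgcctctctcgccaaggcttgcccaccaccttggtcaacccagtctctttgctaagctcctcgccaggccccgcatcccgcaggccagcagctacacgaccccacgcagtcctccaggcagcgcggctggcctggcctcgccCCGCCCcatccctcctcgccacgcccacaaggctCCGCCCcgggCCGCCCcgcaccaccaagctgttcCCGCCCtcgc
Gpc4, chrX:136676058-136676307: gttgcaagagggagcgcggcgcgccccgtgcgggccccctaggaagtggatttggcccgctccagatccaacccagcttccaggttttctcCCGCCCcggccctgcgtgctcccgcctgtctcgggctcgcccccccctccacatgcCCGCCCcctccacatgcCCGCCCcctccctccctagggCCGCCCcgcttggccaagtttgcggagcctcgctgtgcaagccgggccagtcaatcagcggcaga
Each window held 4 GC boxes, all in the reverse orientation, and had a GC content of 71.6%, where the median of all 33469 promoter windows of this length was 51.2%. GC boxes occurred in 30.5% of those windows on either strand. Neither window held the letters TATAA (24.0% of all windows) or TGACTCA, a sequence bound by AP-1 factors (4.05%). Such matches describe the letters only.

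Glypican-3, which modulates hedgehog, Wnt and bone morphogenetic protein signals during growth of the embryo, had 767 and 802 CPM in control and 262 and 250 CPM in PE. Every PE value was under every control value by a wide margin. The log2 fold change was -1.62 ± 0.03 (SE), 3.07-fold lower, with an edgeR adjusted p = 4.30e-30. Its listed ORF has 511 codons. The annotated ORFs nearest to Gpc3 in the 4 library levels, by Euclidean distance of log2(CPM + 1), were those of the ADP-ribosyltransferase Art3 (distance 0.359; -1.41 on the log2 scale) and of Ech1, an enzyme of fatty acid oxidation (distance 0.514; -1.38).

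Glypican-4, which supports fibroblast growth factor and Wnt signalling, had 399 and 391 CPM in control and 201 and 214 CPM in PE. The groups were well apart, with a log2 fold change of -0.93 ± 0.03, 1.90-fold lower (adjusted p = 1.20e-21, edgeR). Glypican-6 (chromosome 15, 102165067 to 103170531, plus strand, 555 codons) is the nearest relative of Gpc4 among the 4 members, and its ORF has the longest genomic span of the members. It had 88.3 and 92.0 CPM in control and 40.5 and 39.0 CPM in PE, with both PE libraries lower. The change was -1.18 ± 0.06 on the log2 scale, 2.27-fold lower (adjusted p = 1.26e-16, edgeR). All 3 of these glypicans kept their call under all 14 alternative settings, including each in which a library was left out.

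Glypican-1, known for its binding of fibroblast growth factors, was the exception. Its ORF (chromosome 9, 99998494 to 100025221, plus strand, 558 codons) had 341 and 319 CPM in control and 308 and 321 CPM in PE. The groups overlapped, and the log2 fold change of -0.07 ± 0.03 did not pass (adjusted p = 0.102, edgeR). It was called lower with library totals alone (-0.11, adjusted p = 0.00462), without control replicate 2 (-0.12, 0.00599) and without PE replicate 2 (-0.09, 0.0255), all in edgeR. Whether Gpc1 differed from the other glypicans was not tested as such.

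The 4 glypicans together had 1595 and 1603 CPM in control and 811 and 824 CPM in PE, a ratio of 0.511. Within the family, Gpc3 supplied 50.2% and 52.2% of the per-kilobase level in control and 34.2% and 32.2% in PE. The share of Gpc1 went from 20.4% and 19.0% to 36.9% and 37.9%, which made it the largest in both PE libraries. Gpc4 stayed between 23.3% and 25.3% and Gpc6 between 4.62% and 5.51%.

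**Figure D4:**
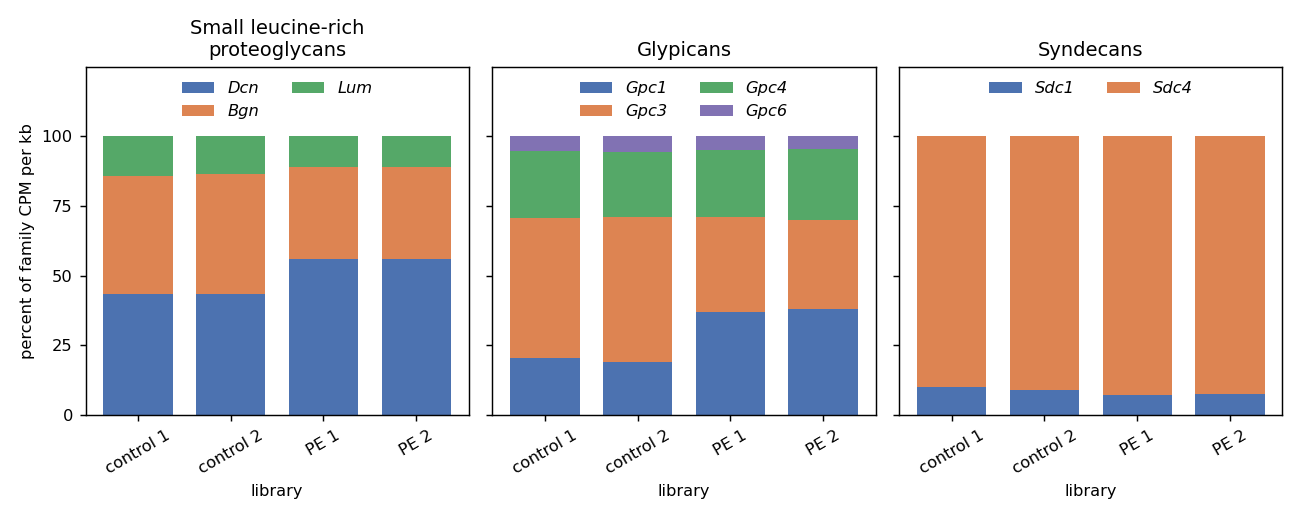
Percent of the summed CPM per kb of each family supplied by each member, 1 bar per library; Ogn has no counts and is not drawn. Dcn grows from 43.5% to 56.0% of its family and Gpc1 from 19.7% to 37.4% of the glypicans (means of 2 libraries), while Sdc4 supplies 90.1% to 92.6% of the syndecan level.

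Syndecan-4, a receptor of focal adhesions that is linked to calcineurin and hypertrophic signalling in cardiomyocytes, had 143 and 137 CPM in control and 209 and 221 CPM in PE. Both PE libraries were above both control libraries. The ORF (chromosome 3, 160874367 to 160891175, minus strand, 202 codons) had a log2 fold change of 0.62 ± 0.04, 1.54-fold higher, with an edgeR adjusted p = 1.70e-14. It kept this call when each library was left out, and lost it only against the 1.5-fold limit (adjusted p = 0.528, edgeR), which lies near its own size. The ORFs nearest to it in the 4 library levels were those of Ugdh, which makes the UDP-glucuronate used for glycosaminoglycan chains (distance 0.0777; 0.58 on the log2 scale), and of the netrin receptor Unc5b (distance 0.0838; 0.66). For Dcn, the nearest were the troponin Tnnc1 (distance 0.0750; 0.68) and the laminin chain Lamc1 (distance 0.119; 0.71).

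The promoter window of Sdc4 is shown for comparison with those of the glypicans above, because Sdc4 moved in the opposite direction. It lies on the minus strand of GRCr8, is given by RefSeq, and capitals mark GC boxes and the single TATAA.
Sdc4, chr3:173592924-173593173: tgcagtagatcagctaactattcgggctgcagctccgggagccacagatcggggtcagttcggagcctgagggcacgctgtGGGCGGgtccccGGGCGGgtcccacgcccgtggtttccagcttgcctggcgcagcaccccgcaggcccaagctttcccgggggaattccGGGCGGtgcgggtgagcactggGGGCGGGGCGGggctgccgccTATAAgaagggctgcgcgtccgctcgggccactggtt
It held 5 GC boxes, all in the forward orientation and 2 of them overlapping, and had a GC content of 70.0%. The window of Sdc1 likewise held GC boxes (3) and TATAA, which is found there on both strands as the overlapping letters TTATAA. Promoter windows were found for 6 of the 10 members, and not for Dcn, Bgn, Gpc1 or Gpc6. Whether the letters of these windows bear on the footprint changes was not tested.

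Syndecan-1, best known from epithelia and plasma cells and present at low level here, had 24.4 and 20.9 CPM in control and 25.7 and 28.2 CPM in PE. Its groups did not overlap, but the upper control value lay close to the lower PE value. The log2 fold change of its ORF (chromosome 6, 33885784 to 33906180, plus strand, 313 codons) was 0.26 ± 0.11, with an edgeR adjusted p = 0.0478. This narrow call was lost with library totals (adjusted p = 0.0990), without control replicate 2 (0.431), without PE replicate 2 (0.274) and after removal of a trend with ORF length (0.109). The value without control replicate 2 was 0.14, and DESeq2 gave an adjusted p of 0.264.

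The 2 syndecans summed to 168 and 158 CPM in control and 235 and 249 CPM in PE, and Sdc4 accounted for 90.1% to 92.6% of their per-kilobase level in all libraries. Sdc2, a syndecan outside the members, was lower, from 134 ± 2.84 to 95.9 ± 3.96 CPM (log2 fold change -0.48 ± 0.05, adjusted p = 5.38e-10, edgeR), while Sdc3, named after its value was seen, had -0.03 and was not called.

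Non-overlapping groups were found for 7 of the 9 tested members, where 68.6% of all tested ORFs had them. All 9 had between 1.11 and 1.23 counts per P-site, near the median of 1.12 over all ORFs, and 82.0% to 90.3% of their P-sites were in frame.

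Beyond the members, the enzymes, partners and ligands of proteoglycans were read from the same fit. Of 168 genes in 12 lists, 129 were tested. Of these, 38 were higher and 41 lower, a share of 61.2% where 45.2% of all genes were called. The lists were chosen with earlier results of these data known, so the distance between these shares is no test of the lists. The median log2 fold change of the 129 tested genes was -0.05. Among small leucine-rich proteoglycans outside the members, 1 of 4 tested was higher and 3 were lower (median -0.70). Fibromodulin (Fmod), a collagen-binding keratan sulfate proteoglycan, fell from 318 ± 19.6 to 54.5 ± 1.32 CPM (log2 fold change -2.55 ± 0.05), while Prelp, which anchors basement membranes to connective tissue, rose by 0.20 on the log2 scale. Tsku was at -0.29, a call that was lost with DESeq2 (adjusted p = 0.131), without control replicate 2 (0.0782, edgeR) and without PE replicate 2 (0.0818). The fourth, Epyc, had -1.10 and under 5 CPM, and is named after its value was seen.

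Among other core proteins, listed together with the link protein Hapln1, 6 of 12 tested were higher and 4 lower (median 0.32). Versican (Vcan), a large chondroitin sulfate proteoglycan of the provisional matrix, rose from 145 ± 1.04 to 331 ± 7.01 CPM (log2 1.19 ± 0.03), and the testican Spock2 rose by 1.08. Agrin (Agrn), a heparan sulfate proteoglycan of basement membranes, fell by 0.79 and the link protein Hapln1 by 0.93.

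Synthesis of heparan, chondroitin and dermatan sulfate chains starts from a shared linker, built on the core protein by a small set of enzymes. Of the 9 linker genes, 2 were higher and 2 lower (median -0.06). The sugar nucleotide enzymes Ugdh and Uxs1 rose by 0.58 and 0.38 (log2). The xylosyltransferases Xylt1 and Xylt2, which start the chain, were at -0.53 and -0.25. The Xylt1 call was lost with DESeq2 (adjusted p = 0.0596), and it missed the threshold when control replicate 1 was left out (-0.39, adjusted p = 0.0590, edgeR). That of Xylt2 was lost with DESeq2 (adjusted p = 0.184), without control replicate 1 (0.168, edgeR), without PE replicate 2 (0.124) and after removal of the length trend (0.132). Of 15 tested genes of heparan sulfate synthesis and modification, 6 were higher and 5 lower (median 0.10). The endosulfatases Sulf1 and Sulf2, which remove sulfate groups from finished heparan sulfate, parted: Sulf1 rose from 162 ± 6.86 to 458 ± 6.45 CPM, 2.83-fold higher, and Sulf2 fell by 0.35. The sulfotransferases did so as well, with Hs6st1 up by 0.66 and Hs6st2 at -0.45.

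Of 15 tested genes of chondroitin and dermatan sulfate synthesis, 4 were higher and 1 lower (median 0.24). The 4-O-sulfotransferase Chst11 rose from 8.10 ± 0.471 to 23.5 ± 0.528 CPM (log2 1.54 ± 0.13) and the chain synthase Chsy3 by 0.97, with Chpf at 0.27 and Chst12 at -0.54. The call of Chst12 was lost with DESeq2 (adjusted p = 0.0558) and without PE replicate 1 (-0.38, adjusted p = 0.0742, edgeR). Of 5 tested genes that supply activated sulfate, Papss1 and Papss2 were higher, by 0.21 and 0.31, and the other 3 did not pass (median -0.01). Both calls were lost with DESeq2 (adjusted p = 0.0561 and 0.218). That of Papss1 was also lost without PE replicate 1 (adjusted p = 0.0548, edgeR), and that of Papss2 with library totals (0.0673), without control replicate 1 (0.22 on the log2 scale, adjusted p = 0.204) and without PE replicate 2 (0.145, adjusted p = 0.492).

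Of 12 tested genes of glycosaminoglycan degradation, 6 were lower and 6 did not pass (median -0.18). Arsb and Naglu, which remove sulfate and sugar units, fell by 0.48 and 0.45, and Hexa by 0.23. Glb1 was at -0.13, a call lost once the trend with ORF length was removed (-0.081, adjusted p = 0.122, edgeR), with DESeq2 (0.130), without control replicate 2 (0.0808) and without PE replicate 2 (0.0557). Of 10 tested genes listed under shedding and cleavage at the cell surface, 7 were lower and 1 higher (median -0.34). The list also holds membrane proteins that are not proteases, Thbd at -0.37 and Gpihbp1, which was not called. The aggrecanase Adamts5 fell by 0.83, the membrane-bound metalloproteinase Mmp14 from 1029 ± 6.07 to 744 ± 4.64 CPM, while Mmp2 rose by 0.19. Adamts1 was at -0.15, and with the trend on ORF length taken out it was at -0.053 and not called (adjusted p = 0.264, edgeR).

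Among intracellular partners of syndecans, 5 of 11 tested were higher and 1 lower (median 0.04). The adaptor Gipc1 rose by 0.59 on the log2 scale and the calcineurin subunit Ppp3cb by 0.35. The subunit Ppp3ca was at 0.15, a call lost with library totals (adjusted p = 0.107, edgeR), with DESeq2 (0.181), without control replicate 2 (0.086 on the log2 scale, adjusted p = 0.320) and without PE replicate 1 (0.135). The membrane linker Ezr was at -0.09, and with the same trend taken out it was at -0.056 (adjusted p = 0.0574, edgeR). Receptors and ligands of small leucine-rich proteoglycans were divided, with 4 of 13 tested higher and 6 lower (median -0.25). Tgfb2, a ligand that decorin binds, rose from 214 ± 2.99 to 382 ± 9.49 CPM (log2 0.83 ± 0.03) and its binding protein Ltbp1 by 0.44. The receptor Egfr fell by 0.78 and Bmp4 by 0.79.

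Of 21 tested ligands and receptors that depend on heparan sulfate, 7 were higher and 5 lower (median -0.03). Pleiotrophin (Ptn), a heparin-binding growth factor, fell from 311 ± 9.89 to 31.1 ± 0.776 CPM (log2 -3.32 ± 0.05), the lowest value of any gene in these lists, and its relative midkine (Mdk) fell by 0.92. Hepatocyte growth factor (Hgf) rose from 19.8 ± 0.422 to 67.7 ± 2.81 CPM (log2 1.78 ± 0.08) and Hbegf by 0.97.

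**Figure D5:**
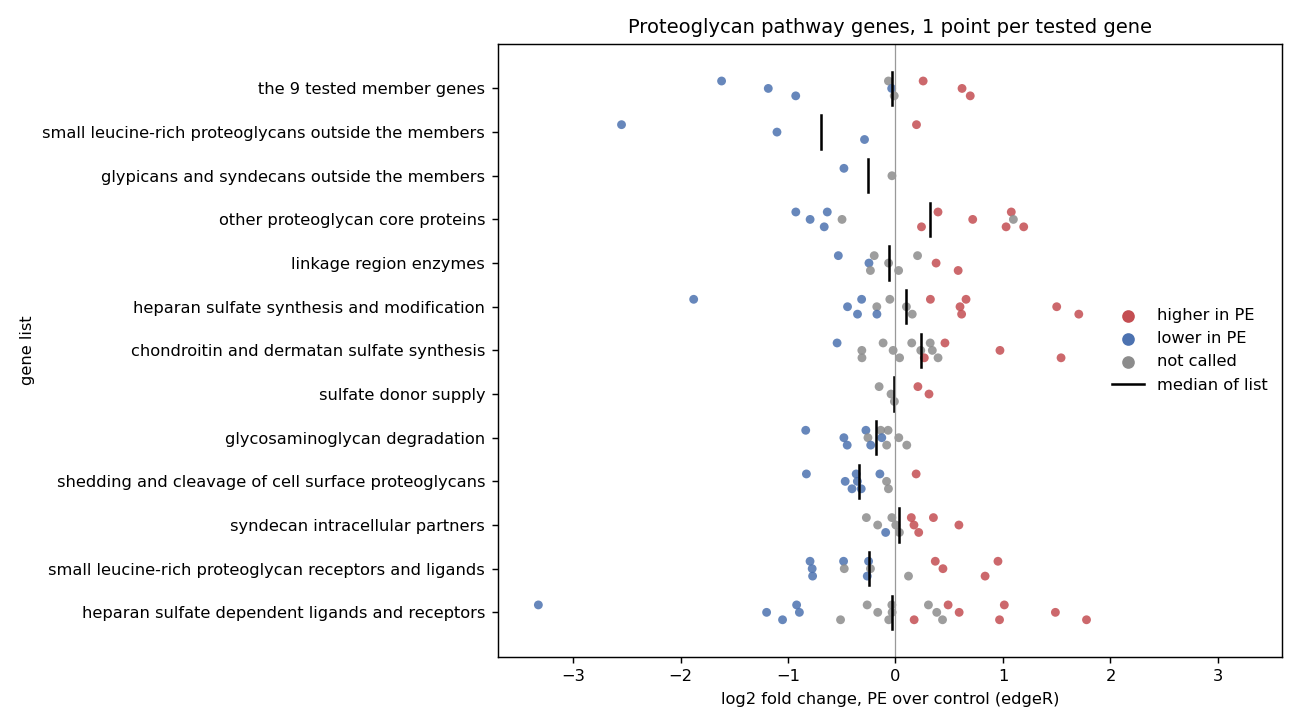
Log2 fold change of PE over control (edgeR) for each tested gene of the members and of 12 proteoglycan pathway lists, 1 point per gene; colour gives the call and the black bar the median of the list. Ptn at -3.32 and Fmod at -2.55 are lowest and Hgf at 1.78 is highest among the 12 lists.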

How the data were processed

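Ribosome profiling footprints of 2 control and 2 PE libraries were analysed. They were grouped by their titles, because the treatment description mentions PE for every sample. The authors deposited raw counts per ORF and an annotation with P-site counts per frame and their own DESeq2 log2 fold changes and adjusted p-values (per the file headers). The tools named in the submitters' processing notes are STAR 2.4.2a, cutadapt 2.0 and Bowtie 1.1.2, with build Rnor_6.0. Which program called ORFs or counted reads is not given in the sources used here.

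Counts were filtered with filterByExpr, TMM-scaled and tested with edgeR 4.0.16 (R 4.3.3; robust quasi-likelihood, no replicate term), with Benjamini-Hochberg adjustment across 12609 ORFs. SE is the absolute log2 fold change over the root of F. Libraries held 11446574 to 13827599 counts, and CPM uses these totals times the TMM factors (0.9824 to 1.015). Replicates differed by more than sampling noise (chi-square per degree of freedom 1.62 and 1.60). The scripts were tested on simulated data. The alternatives were other scaling, filters, DESeq2 1.42.0, a replicate block, each library left out, a length trend and a 1.5-fold limit. Each gene used its annotated ORF with most counts. From each pathway list, up to 2 called genes at either end with a mean of at least 5 CPM were named, and from each marker list the 2 most abundant and those at 0; 1 gene is not reported here. The members and lists were chosen with earlier results of these data known. Per-sample columns left unused numbered 0.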

Additional observations from a re-analysis of the deposited data

Results flagged for a closer look

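The Ogn ORF had 7939 P-sites in the deposited annotation and 0 counts in every library, a signal in a column that the comparison of PE with control does not use. The P-sites are pooled, so they say nothing about PE. Its neighbours on chromosome 17, the small leucine-rich proteoglycans Omd and Aspn, likewise had 0 counts, with 342 and 2134 P-sites. Over the series, 1807 of 15034 annotated ORFs had 0 counts in all libraries. The cause was not tested.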

How the results depend on the processing

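Against a 1.5-fold change, the members called numbered 4 in place of 7 and the pathway genes 19 in place of 79. Left-out libraries gave 6 to 7 members and 69 to 74 pathway genes, and DESeq2 gave 5 and 57. The replicate block gave 7 and 79, the same counts, and same-numbered libraries did not deviate together (correlation -0.00381). Lum ranged from -0.05 to 0.02 with a library left out, at 0.016 without control replicate 1 and -0.047 without control replicate 2. The difference of the Dcn upstream and annotated ORFs was -0.46 without a library term (adjusted p = 2.11e-06, edgeR) and -0.46 with the replicate block in its place (adjusted p = 2.42e-05), and -0.51 to -0.40 with a library left out, with adjusted p of 0.0264 to 0.606. Of the other values of single genes under alternatives, 706 kept their direction and call, 72 lost the call and 5 gained one. Summing the annotated ORFs of a gene is counted among these. Library totals shifted the median of all ORFs by -0.04. Arms with 1 library are assumed to vary like the others.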
